A study of Homo sapiens with 12 samples.

Results

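The 10 genes described here encode 6 chemokines (CXCL8, CXCL1, CXCL2, CXCL3, CXCL5 and CCL20), the protease-activated receptor F2RL1, the NF-kB subunit NFKB1, and the NF-kB inhibitors NFKBIA and TNFAIP3. They were taken by name from the 58174 genes listed for each cell line, and the set was chosen by measured values, since CXCL8 and F2RL1 fall strongly in Hep-G2 after depletion of IGF2BP1. Every member value in Hep-G2 is therefore given as a description, with no test. The rule used no value of BE(2)-C, and these were tested where enough reads were present, although earlier results of both lines were known.

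IGF2BP1 is an RNA-binding protein, and the study asked how its depletion changes gene expression in cancer cells. Hep-G2 is a hepatoblastoma line and BE(2)-C an MYCN-amplified neuroblastoma line. The siC groups received a control siRNA and the siI1 groups a pool of siRNAs against IGF2BP1, at 15 nM in Hep-G2 and at 25 nM in BE(2)-C, and all cells were harvested after 72 h. The 12 polyadenylated RNA libraries form 4 groups of 3 biological replicates, each group from a single established line. As the pool was used in every siI1 library, effects of its single siRNAs cannot be told apart.

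Levels are FPKM, fragments scaled by gene length and by library size, from which whole reads per gene were recovered. In Hep-G2, the siC libraries held 13465944 to 15176939 reads on genes and the siI1 libraries 13398903 to 14858343. These ranges were 12852988 to 14662575 for siC and 13649325 to 15721210 for siI1 in BE(2)-C. Differences are siI1 minus siC on the log2(FPKM + 0.1) scale, with their standard error (SE), a scale that understates changes of genes with few reads. Genes with at least 0.1 FPKM in 3 or more of 6 libraries were compared by limma (19436 for Hep-G2, 18656 for BE(2)-C) and called at a Benjamini-Hochberg adjusted p below 0.05. An exact two-sided permutation test of 3 libraries against 3 cannot fall below a p of 0.1, so calls rest on the fit across genes. Counting intervals and floors given for genes with few reads cover counting error only.

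NF-kB dimers are held in the cytoplasm by inhibitors of the IkB family until receptors for cytokines, microbial products or stress signals activate the IkB kinase complex. The freed dimers switch on chemokine genes and also the genes of their own inhibitors, which makes the response self-limiting. Chemokine mRNAs often carry AU-rich elements in their 3′UTR and are short-lived, and in liver CXCL8 and related chemokines are known for drawing neutrophils into injured or inflamed tissue.

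Among the 4 groups, 1 library stood apart. The squared difference between replicates, relative to counting error alone, was 14.22 and 15.14 per gene when Hep-G2 siI1 replicate 1 was compared with replicates 2 and 3, against 2.08 between those replicates. It ranged from 2.36 to 5.38 among the Hep-G2 siC libraries, from 5.01 to 7.73 among the BE(2)-C siC libraries, and from 2.51 to 3.51 among the BE(2)-C siI1 libraries. Member values and the counts over all lists are given with and without that library.

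Marker genes followed the labelled lines. In Hep-G2, 7 of 7 hepatic markers had a mean of at least 0.1 FPKM, led by ALB at 4619 FPKM, whereas in BE(2)-C 0 of 7 reached it and AFP and HNF4A had no read. Of 8 neuroblastoma markers, 8 reached this level in BE(2)-C, led by MYCN at 1778 FPKM, against 2 of 8 in Hep-G2, where HAND2 and ISL1 had no read. The summed hepatic markers moved with the siRNA in Hep-G2, from 7691, 7633 and 7617 FPKM in siC to 12772, 14367 and 14530 FPKM in siI1, with 5 of 7 called higher and 1 lower (2 lower without siI1 replicate 1). The neuroblastoma markers summed to 2961, 2786 and 2849 FPKM in BE(2)-C siC and to 2942, 2888 and 2986 FPKM in siI1, with 4 called lower and 1 higher.

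Markers of other cells were low, apart from fibroblast markers in BE(2)-C. Of 6 myeloid markers, only CD14 reached 0.1 FPKM, with a mean of 1.46 FPKM in Hep-G2 and 1.33 FPKM in BE(2)-C, where PTPRC, ITGAM and AIF1 had no read. The myeloid sum was 0.758, 0.935 and 0.695 FPKM in Hep-G2 siC and 2.57, 2.29 and 2.36 FPKM in siI1, and CD14, chosen after its values were seen, was called higher (1.38, limma adjusted p = 0.00049). The same sum in BE(2)-C was 2.37, 1.39 and 2.07 FPKM in siC and 0.650, 1.15 and 0.776 FPKM in siI1, and CD14 was called lower (−1.20, adjusted p = 0.024). That call was lost with the replicate block, which leaves the value as it is, and without siC replicate 1 (−1.04), siC replicate 3 (−1.14), siI1 replicate 1 (−1.02) or siI1 replicate 3 (−1.12). None of 4 endothelial markers reached 0.1 FPKM in either line, where PECAM1 led in Hep-G2 at 0.0914 FPKM and VWF in BE(2)-C at 0.0438 FPKM, and KDR had no read in BE(2)-C. Of 5 fibroblast markers, 2 reached it in Hep-G2 and 5 in BE(2)-C, led by PDGFRB at 0.530 FPKM and 16.0 FPKM. The fibroblast sum in BE(2)-C was 28.7, 24.96 and 29.3 FPKM in siC and 36.0, 37.3 and 35.6 FPKM in siI1, with 2 of 5 called higher. The part of these markers in the results below was not tested. In bulk RNA, fewer cells expressing a gene and less of its RNA per cell cannot be told apart.

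IGF2BP1 (ENSG00000159217, hg38 chr17:48997385-49056145, plus strand) is the siRNA target. Its level in Hep-G2 was 48.5, 46.6 and 50.8 FPKM in siC and 12.6, 10.7 and 10.7 FPKM in siI1, a log2 fold change of −2.10 (SE 0.08, limma adjusted p = 7.8e-06), and −2.18 without siI1 replicate 1. BE(2)-C had 21.3, 20.6 and 21.6 FPKM in siC and 4.85, 4.74 and 4.87 FPKM in siI1, or −2.11 (SE 0.05, limma adjusted p = 1.5e-05). Every siI1 library lay below every siC library in both lines. Genes annotated within IGF2BP1 had at most 36 reads in any library.

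The promoters of the members are shown because their NF-kB motifs are what several of these genes share outside the measured values. RefSeq (GRCh38.p14) gave promoter windows for all 10 members, 11 windows in all, each from 250 bases before to 50 after a start, and 35116 human promoters were searched alike on both strands. The searched words were GGAATTTCC, an NF-kB core held by 162 promoters (0.461%), the NF-kB consensus, which overlaps the core and is held by 3956 (11.3%), and the AP-1 word TGANTCA, held by 2707 (7.71%). In the stretches below, written 5′ to 3′ on the strand of each gene, capitals mark these words. The CXCL8 stretch is chr4:73740419-73740518 (plus), that of CXCL1 is chr4:73869289-73869349 (plus), that of CXCL2 is chr4:74099238-74099298 (minus) and that of CCL20 is chr2:227813738-227813797 (plus), inside the gene as GENCODE lists it from a start 8103 bases before the RefSeq one. The F2RL1 stretch is chr5:76818880-76818932 (plus), that of NFKBIA is chr14:35404796-35404855 (minus), that of TNFAIP3 is chr6:137867167-137867213 (plus) and that of NFKB1 is chr4:102501285-102501329 (plus).
CXCL8: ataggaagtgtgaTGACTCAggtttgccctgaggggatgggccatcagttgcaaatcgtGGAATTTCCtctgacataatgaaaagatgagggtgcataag
CXCL1: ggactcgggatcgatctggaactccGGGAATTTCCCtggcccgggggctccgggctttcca
CXCL2: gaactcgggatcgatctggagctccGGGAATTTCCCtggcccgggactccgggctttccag
CCL20: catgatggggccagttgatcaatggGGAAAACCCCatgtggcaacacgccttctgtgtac
F2RL1: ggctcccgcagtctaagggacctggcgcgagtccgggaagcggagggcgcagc
NFKBIA: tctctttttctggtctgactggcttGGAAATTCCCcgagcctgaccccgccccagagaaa
TNFAIP3: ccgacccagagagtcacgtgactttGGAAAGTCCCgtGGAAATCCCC
NFKB1: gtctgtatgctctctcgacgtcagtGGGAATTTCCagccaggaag

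CXCL8 was the only member with an AP-1 word, 137 to 131 bases before its RefSeq start, and its NF-kB core lies 91 to 83 bases before that start, chr4:73740569, which is 50 bases inside the gene as GENCODE lists it. The NF-kB core was also found in the CXCL1, CXCL2, CXCL3, CXCL5, NFKBIA and NFKB1 windows, and the longer consensus alone in those of CCL20 and TNFAIP3, the latter with 2 matches. In CXCL3 the match falls within an annotated exon. The F2RL1 window held none of these words, nor did the window of the other NFKB1 start, which says only that these letters are not there.

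In the longest 3′UTR that GENCODE lists for a gene, the AU-rich pentamer ATTTA was counted for all 10 members, overlapping matches included. The counts of 9 are given here, and only that of CXCL8 is left out. It occurs 6 times in CXCL1, 10 times in CXCL2, 7 times in CXCL3, 11 times in CXCL5 and 3 times in CCL20. F2RL1 has 3, NFKBIA 2, TNFAIP3 5 and NFKB1 3. As a density per kilobase this comes to 14.0 for CXCL2, 10.4 for CXCL3, 7.77 for CXCL1, 6.24 for CCL20 and 5.51 for CXCL5. The density was 4.24 for NFKB1, 2.51 for TNFAIP3, 2.41 for NFKBIA and 1.98 for F2RL1. The median of 12698 protein-coding genes tested in Hep-G2 was 1.60. For 3 members 30 bases are shown, with the pentamers in capitals and read on the gene's strand. The CXCL2 stretch holds 5 pentamers, and no other 30 bases of its 3′UTR hold more. Those of CCL20 and TNFAIP3 hold only 1 each, as do stretches around their other pentamers. The stretches are from chr4:74097586-74097615 (CXCL2, minus), chr2:227817282-227817311 (CCL20, plus) and chr6:137882297-137882326 (TNFAIP3, plus).
CXCL2: cttctATTTATTTATTTATTTATTTAtttg
CCL20: tgtattttatgttATTTAtagctgtaggtt
TNFAIP3: tgtaattcactttATTTAttttattacaaa

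CXCL8 (ENSG00000169429, chr4:73740519-73743716, plus strand) encodes interleukin-8, a chemokine that attracts neutrophils. In Hep-G2 its level was 35.4, 35.3 and 34.97 FPKM in siC and 3.97, 3.47 and 3.55 FPKM in siI1, from 108 to 1251 reads per library. The groups did not overlap, and the siI1 mean was 10.4% of the siC mean. The log2 fold change was −3.23 (SE 0.07), and 36 of the 19436 tested genes had a lower value. Without siI1 replicate 1 it was −3.29. The 3 BE(2)-C siC libraries had no CXCL8 read and the siI1 libraries 1 read in all.

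CCL20 (ENSG00000115009, chr2:227805739-227817564, plus strand) encodes the ligand of the receptor CCR6. In Hep-G2 it stood at 25.6, 28.8 and 26.8 FPKM in siC and 4.90, 6.14 and 5.57 FPKM in siI1, from 89 to 533 reads per library. The siI1 libraries lay below every siC library, with a mean of 20.5% of siC. The log2 fold change was −2.27 (SE 0.09), and −2.19 without siI1 replicate 1. No BE(2)-C library held a CCL20 read, which allows up to 0.0543 FPKM in siC and 0.0514 FPKM in siI1 at a floor of 3 reads over the group.

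CXCL1, CXCL2, CXCL3 and CXCL5 encode further neutrophil-attracting chemokines. With CXCL8 they lie in a cluster of 359 kb, chr4:73740519-74099196 in hg38, with 2 genes on the plus and 3 on the minus strand. Their reads are scarce and partly uncertain, since the coding sequences of CXCL1 and CXCL2 are 93.5% identical, those of CXCL1 and CXCL3 90.7% and those of CXCL2 and CXCL3 94.4%, while CXCL8 shares 53.5% to 55.5% with the others. Of the other chemokine genes in the cluster, CXCL6, PF4V1 and PPBP had no read in any of the 12 libraries and PF4 at most 3.

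CXCL2 had 4, 12 and 5 reads in the Hep-G2 siC libraries, or 0.172, 0.587 and 0.226 FPKM, and 0, 0 and 1 read in siI1, the latter 0.0499 FPKM. CXCL1 had 4, 4 and 2 reads in siC (0.199, 0.227 and 0.105 FPKM) and 1, 0 and 0 in siI1 (0.0571 FPKM in replicate 1). In both genes every siI1 library was below every siC library. The ratio of siC to siI1 over the pooled reads was 19.8 for CXCL2 (95% counting interval 3.19 to 820) and 9.44 for CXCL1 (1.34 to 410). Both genes passed the filter only through their siC libraries and so had to differ, and their intervals describe counting error and are no test of a difference. Their fitted log2 fold changes, −1.78 (SE 0.45) for CXCL2 and −1.22 (SE 0.38) for CXCL1, depend on the pseudocount and were −1.68 and −1.44 without siI1 replicate 1. CXCL3 had 0, 4 and 2 reads in siC and 1, 0 and 0 in siI1, groups that overlap, with a ratio of 5.67 (0.687 to 261), and CXCL5 had 1 read in each group; neither passed the filter. CXCL1, CXCL2 and CXCL3 had no siC read and 1 siI1 read each in BE(2)-C, and CXCL5 had none in any library.

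F2RL1 (ENSG00000164251, chr5:76818933-76835315, plus strand) encodes protease-activated receptor 2, a G protein-coupled receptor that trypsin-like proteases switch on by cleaving its extracellular end. In Hep-G2 it measured 78.0, 78.1 and 83.3 FPKM in siC and 8.95, 7.80 and 8.24 FPKM in siI1, from 326 to 3632 reads per library. No siI1 library came near the siC libraries, and the siI1 mean was 10.4% of siC. The log2 fold change was −3.25 (SE 0.06), with 33 tested genes lower, and −3.30 without siI1 replicate 1. F2RL1 had no read in any BE(2)-C library, which allows up to 0.0246 FPKM in siC and 0.0233 FPKM in siI1. The strand setting of the read counting is not stated, so reads of a lncRNA annotated opposite F2RL1 over 645 bases could not be separated.

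NFKB1 (ENSG00000109320, chr4:102501330-102617302, plus strand) encodes the NF-kB precursor p105, processed to p50. Its Hep-G2 level was 9.14, 8.67 and 9.33 FPKM in siC and 6.95, 6.34 and 6.12 FPKM in siI1, from 512 to 888 reads per library. The groups were close but did not overlap, with a siI1 mean of 71.5% of siC. The log2 fold change was −0.48 (SE 0.07), and −0.53 without siI1 replicate 1. The BE(2)-C level was 5.31, 4.88 and 5.25 FPKM in siC and 5.17, 5.38 and 5.62 FPKM in siI1, groups that overlap. The difference of 0.07 in BE(2)-C (95% interval −0.10 to 0.23) was not called, with a limma adjusted p of 0.52.

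NFKBIA (ENSG00000100906, chr14:35401079-35404749, minus strand) encodes IkB-alpha, which binds NF-kB dimers in the cytoplasm and is itself an NF-kB target. It was the member that rose in Hep-G2, from 44.3, 48.7 and 47.9 FPKM in siC to 60.1, 63.6 and 67.8 FPKM in siI1, from 1574 to 2199 reads per library. All 3 siI1 libraries were above all siC libraries, and the siI1 mean was 135.9% of siC. The log2 fold change was 0.44 (SE 0.06), 0.48 without siI1 replicate 1 and 0.27 with equal sums of FPKM. Its BE(2)-C level was 14.2, 13.8 and 13.1 FPKM in siC and 15.6, 13.5 and 14.5 FPKM in siI1, and the groups overlap. That difference of 0.08 (95% interval −0.07 to 0.24) was not called, with a limma adjusted p of 0.39.

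TNFAIP3 (ENSG00000118503, chr6:137867214-137883314, plus strand) encodes A20, a ubiquitin-editing enzyme that ends NF-kB signalling. In Hep-G2 it fell from 13.6, 12.6 and 13.6 FPKM in siC to 6.22, 5.81 and 5.88 FPKM in siI1, from 397 to 1063 reads per library. The groups did not overlap, and the siI1 mean was 45.1% of siC. The log2 fold change was −1.14 (SE 0.06), and −1.17 without siI1 replicate 1. The opposite-strand lncRNA WAKMAR2, which shares 1020 bases with TNFAIP3, had at most 45 reads. TNFAIP3 had 6 reads over the siC and 7 over the siI1 libraries of BE(2)-C, a ratio of 0.905 (95% counting interval 0.251 to 3.15), so a difference was not detectable at this depth.

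**Figure D1:**
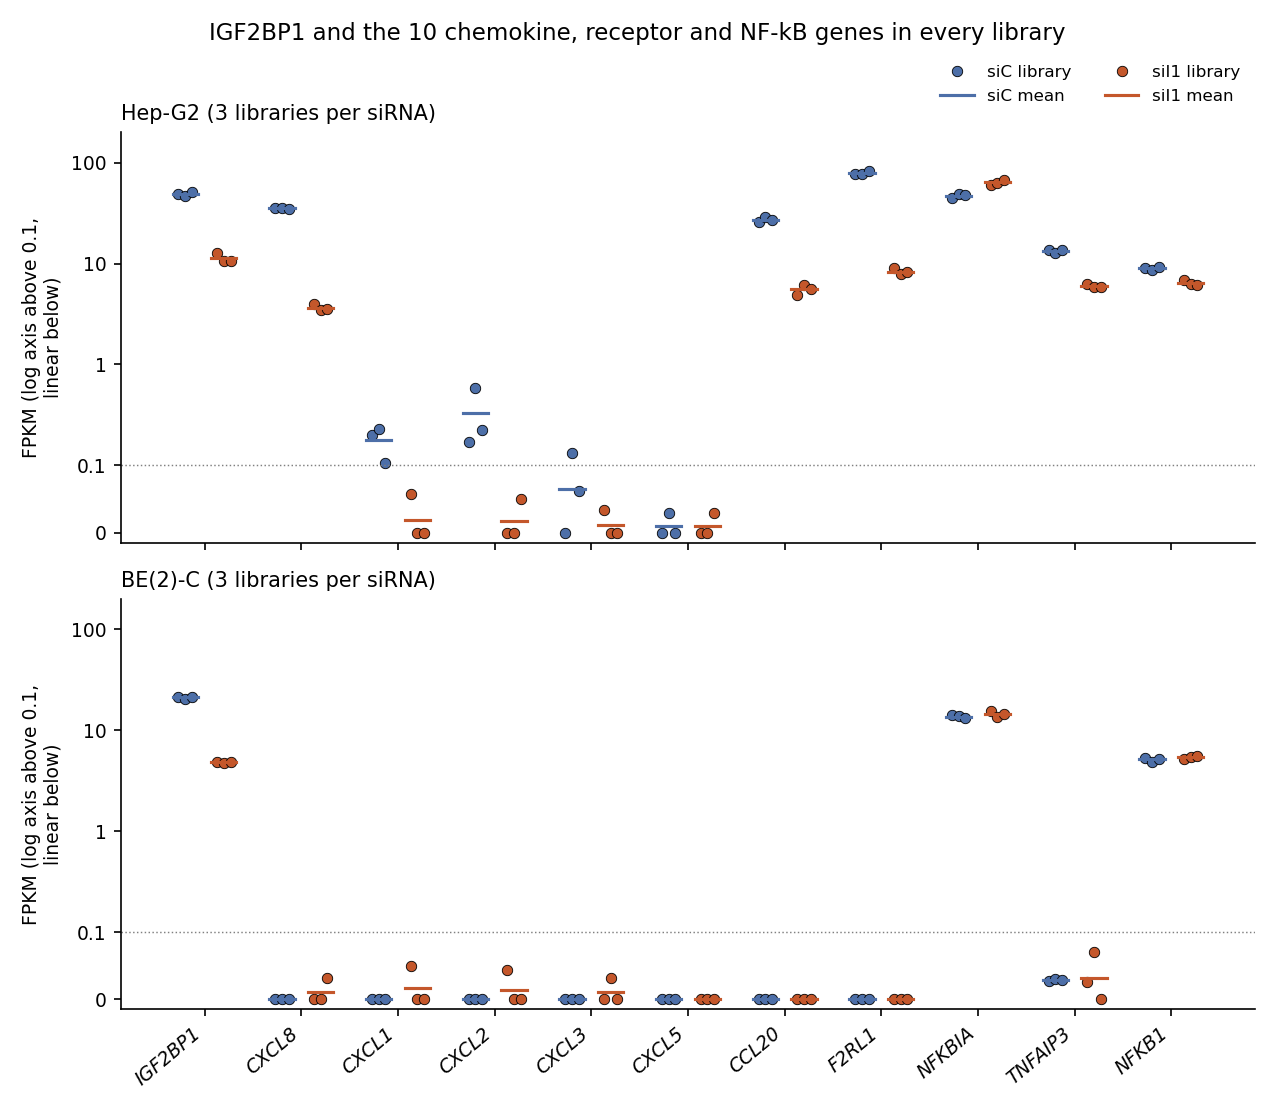
FPKM of IGF2BP1 and the 10 members in each library (points) with the group mean (bars), by siRNA and cell line, on an axis that is logarithmic above 0.1 and linear below. CXCL8 and F2RL1 drop by about the same distance between siC and siI1 in Hep-G2, while among the members only NFKBIA and NFKB1 lie above 0.1 FPKM in BE(2)-C.

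Ordered by mean siC level in Hep-G2, F2RL1 (79.8 ± 3.01 FPKM, SD, 3 libraries) came before NFKBIA (47.0 ± 2.32), CXCL8 (35.2 ± 0.235), CCL20 (27.0 ± 1.63), TNFAIP3 (13.2 ± 0.556) and NFKB1 (9.05 ± 0.342), and each of these levels was separated from the next by more than their spread. CXCL2, CXCL1, CXCL3 and CXCL5 followed, with neighbours that overlap. In siI1 the leading level was that of NFKBIA at 63.9 ± 3.82 FPKM, and CXCL8 at 3.66 ± 0.265 FPKM stood below NFKB1 at 6.47 ± 0.428 FPKM. Among the BE(2)-C siC levels, NFKBIA (13.7 ± 0.513 FPKM) came before NFKB1 (5.14 ± 0.235 FPKM) and TNFAIP3 (0.0289 FPKM), and the other 7 members were at 0. The tables of the lines were normalized separately, so these levels stand side by side with no test.

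Of the 10 members, 8 passed the filter in Hep-G2, 2 of them only through siC. As a count only, and no test of the members, 7 lay past the limma threshold in the lower direction, CXCL1 and CXCL2 among them, and 1 in the higher. Over all tested Hep-G2 genes 44.8% passed it, 23.0% lower and 21.9% higher, and nothing is read from the members' count, as the choice used this contrast. In these same 8 genes the groups did not overlap, 7 with every siI1 library below every siC library and 1 with every siI1 library above, against 27.8% and 28.0% of all tested genes. Without siI1 replicate 1 the counts were again 7 and 1. Only 2 members, NFKBIA and NFKB1, could be tested in BE(2)-C, and limma called 0 lower and 0 higher, where 28.2% of all tested genes were called, 14.8% lower and 13.3% higher. At an unadjusted p below 0.05 the counts were also 0 and 0, and voom on the recovered reads called 0 and 0. Whether the members' effects differ between the lines was not tested.

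**Figure D2:**
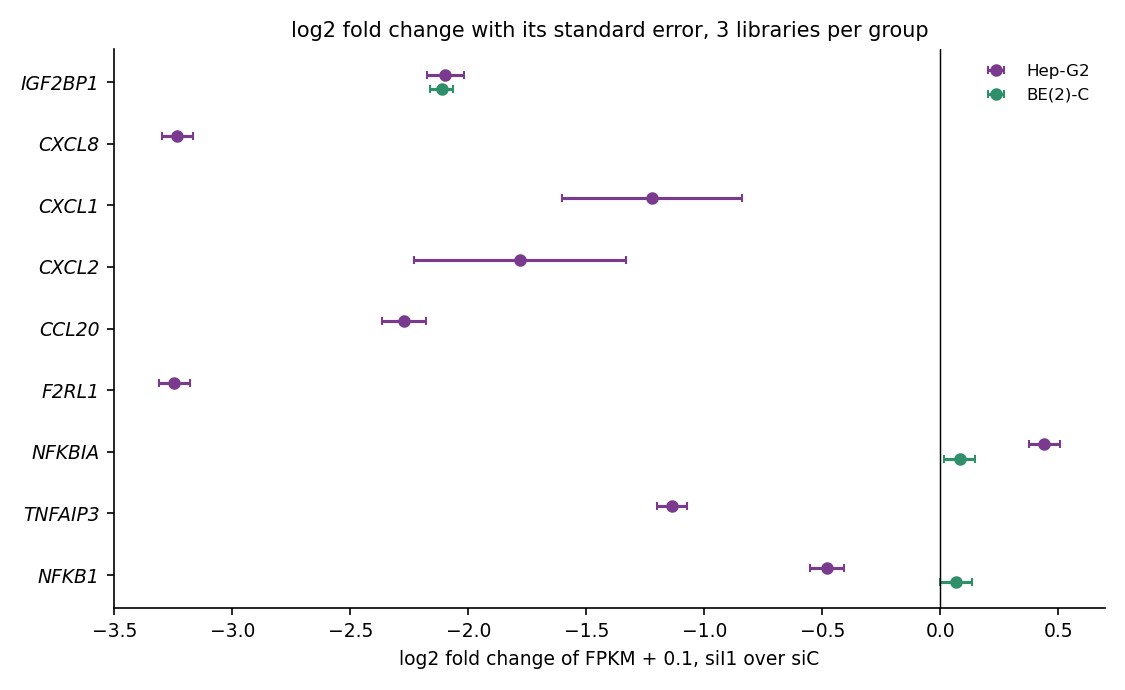
Log2 fold change of siI1 over siC with its standard error (bars) for IGF2BP1 and the members tested in each line, 3 libraries per group. In Hep-G2 NFKBIA lies above 0 and the other members below, with CXCL8 at −3.23 and F2RL1 at −3.25, whereas NFKBIA and NFKB1 in BE(2)-C lie at 0.08 and 0.07.

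Likeness to CXCL8 was measured as the root mean square difference in log2(FPKM + 0.1) from the siC mean, over the 6 Hep-G2 libraries and 12823 protein-coding genes. Among the members the value was 0.0402 for F2RL1 and 0.698 for CCL20. The other tested members were further away, with 1.13 for CXCL2, 1.44 for CXCL1, 1.48 for TNFAIP3, 1.95 for NFKB1 and 2.6 for NFKBIA. As CXCL8 and F2RL1 were chosen together for their fall in these libraries, their closeness follows from the choice. Outside the members the nearest genes were VNN1 (0.0878), HKDC1 (0.140), LYZ (0.140), SPRY4 (0.155) and SLC2A1 (0.17). VNN1 went from 10.1 ± 0.545 FPKM in siC to 0.933 ± 0.122 FPKM in siI1 (SD, 3 libraries each), and LYZ from 1339 ± 13.7 to 126.8 ± 2.50 FPKM.

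**Figure D3:**
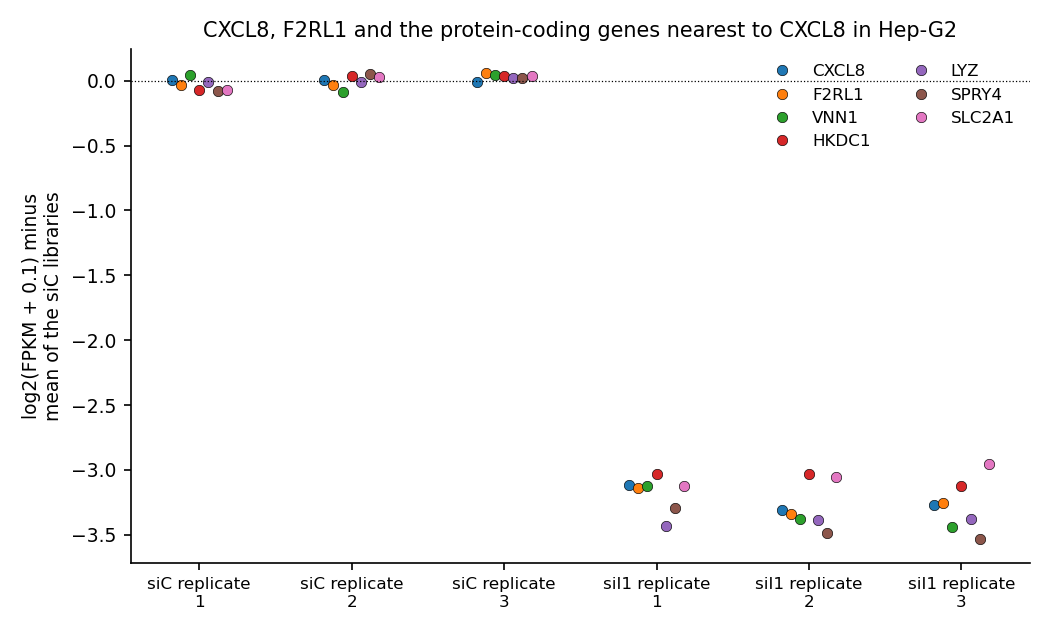
Log2(FPKM + 0.1) minus the siC mean in each Hep-G2 library (points, 3 siC and 3 siI1) for CXCL8, F2RL1 and the 5 genes nearest to CXCL8. Mean differences lie between −3.05 for SLC2A1 and −3.44 for SPRY4, with CXCL8 at −3.23.

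The surroundings of these genes were described by 9 lists, 207 genes in all, of which 134 were tested in Hep-G2 and 99 in BE(2)-C. In Hep-G2 52 were called lower and 28 higher, or 38.8% and 20.9%, beside 23.0% and 21.9% of all tested genes, and the median log2 fold change was −0.20 against 0.01 over all. Without siI1 replicate 1 the counts were 55 and 28, beside 25.6% and 23.5% of all tested genes, no count of a single list moved by more than 1, and of the 30 listed genes named below for Hep-G2 limma calls, 29 kept the call, all but CCR10. TAB3 moved most, from 0.63 to 0.45, and the others by at most 0.15. BE(2)-C had 19 lower and 10 higher, or 19.2% and 10.1% beside 14.8% and 13.3%, with a median of −0.13 against 0.02. The 10 fell to 5 without BE(2)-C siI1 replicate 1, 2 or 3, each left out alone, while the share of all tested genes called higher fell from 13.3% to 8.76%, 8.38% and 8.14%. These shares describe the lists, which were drawn up with earlier results known, and are not tests of them.

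**Figure D4:**
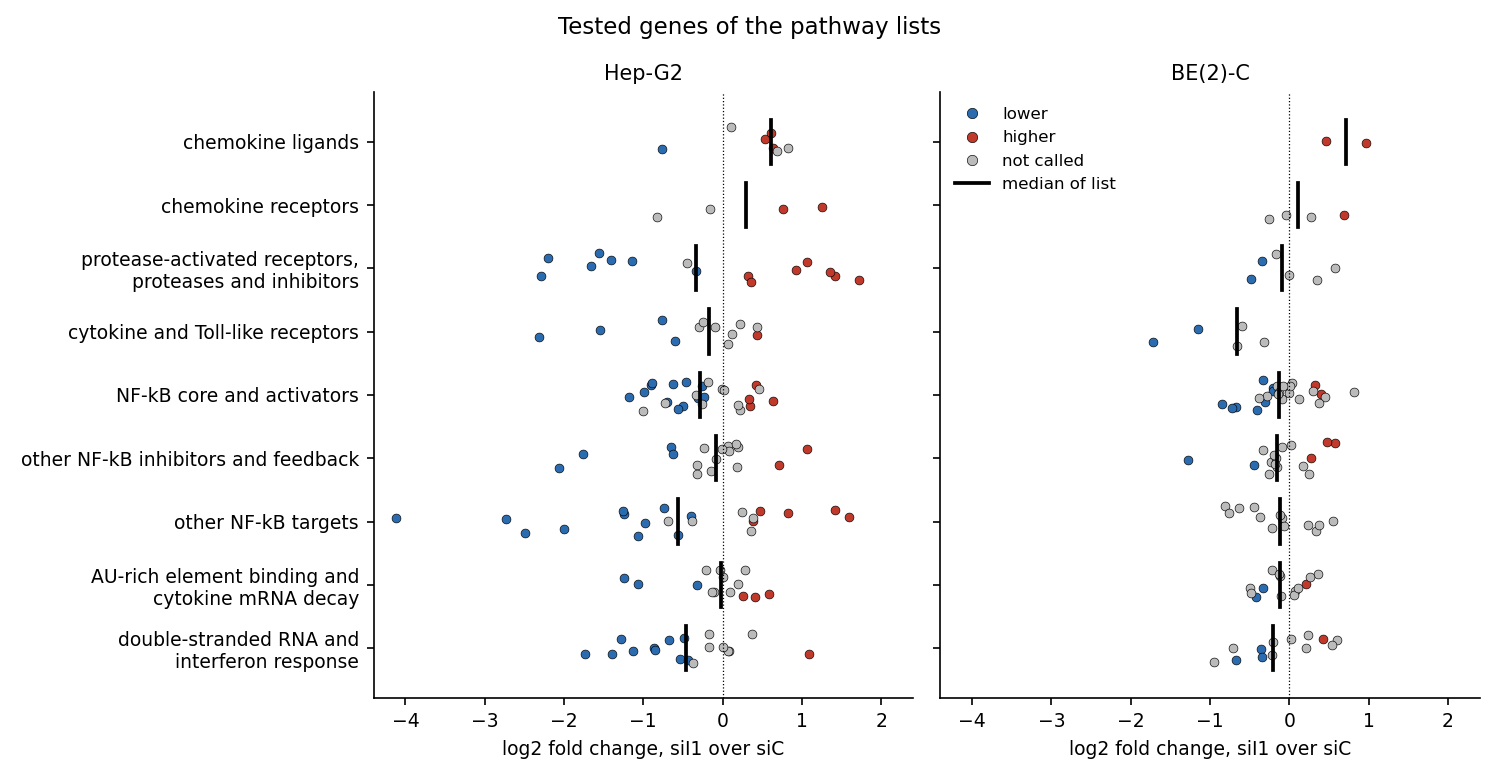
Log2 fold change of siI1 over siC for each tested gene of the 9 lists (points, coloured by call) with the median of the list (black bars), in Hep-G2 (left) and BE(2)-C (right). The other NF-kB targets hold 11 lower and 5 higher of 21 in Hep-G2, where the lowest point is BCL2A1 with 2 siI1 reads, and show no call among 13 in BE(2)-C.

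The list of other chemokine ligands held 38 genes, 7 tested in Hep-G2 and 2 in BE(2)-C, with 17 and 27 at no read in all 6 libraries. Hep-G2 had 1 lower and 3 higher (median 0.61), BE(2)-C 0 lower and 2 higher (median 0.71). For the 0, limma and voom called none, nor did any pass at an unadjusted p below 0.05. CCL15 went from 4.18 ± 0.387 to 2.41 ± 0.160 FPKM in Hep-G2 (log2 fold change −0.76, SE 0.11, adjusted p = 0.0012). CX3CL1, a membrane-bound chemokine, rose there from 22.6 ± 0.156 to 32.9 ± 2.38 FPKM (0.53, SE 0.06, adjusted p = 0.00062), and CCL16 rose by 0.64 (adjusted p = 0.0044). The BE(2)-C level of CX3CL1 rose by 0.46 (adjusted p = 0.014) and CXCL12, the ligand of CXCR4, by 0.96 (adjusted p = 0.02). CX3CL1 was not called there without BE(2)-C siI1 replicate 1 (0.44) or 2 (0.45), nor CXCL12 without siC replicate 1 (0.89), siI1 replicate 2 (0.93) or siI1 replicate 3 (0.83). The groups of the named genes did not overlap. CXCL12 in Hep-G2, too low to be tested, had 6, 4 and 6 reads in siC and none in siI1. CCL26, chosen after its values were seen, had 0, 2 and 0 reads in siC and 1, 0 and 7 in siI1 in Hep-G2, groups that overlap, and was not called (0.83, SE 0.86, adjusted p = 0.47).

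Of 23 chemokine receptors, 4 were tested in each line. Hep-G2 had 0 lower and 2 higher (median 0.30) and BE(2)-C 0 lower and 1 higher (median 0.11), with 0 lower also by voom and at an unadjusted limma p below 0.05 in both. CCR10 rose by 1.25 in Hep-G2, with 9, 3 and 3 reads in siC and 16, 20 and 11 in siI1 (adjusted p = 0.024), but was not called without siC replicate 2 (1.13), siC replicate 3 (1.10), siI1 replicate 1 (1.22) or siI1 replicate 2 (1.13). ACKR2, a decoy receptor, rose by 0.76 (adjusted p = 0.028), and was not called without siC replicate 1 (0.70), 2 (0.77) or 3 (0.80) or siI1 replicate 2 (0.69) or 3 (0.78). The call of ACKR2 was also lost with equal sums of FPKM (0.63), with no filter and with the replicate block, which leave the value at 0.76. CXCR4 rose by 0.68 in BE(2)-C (adjusted p = 0.018) and was not called without siI1 replicate 1 (0.64) or 3 (0.62). The receptors of the members, chosen after their values were seen, had few reads in Hep-G2. CXCR1 had none in siC and 11, 0 and 11 in siI1, CXCR2 none in siC and 15, 1 and 9 in siI1, and CCR6 3, 3 and 3 in siC and 1, 1 and 0 in siI1. None of these receptors had a read in BE(2)-C. Myeloid markers moved in the same Hep-G2 libraries, and their part was not tested. ITGAM had 1, 2 and 1 reads in siC and 12, 3 and 14 in siI1, PTPRC none in siC and 6, 0 and 1 in siI1, and CSF1R 0, 1 and 0 in siC and 1, 8 and 2 in siI1.

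The list of protease-activated receptors, proteases and inhibitors held 18 genes, with 2 beta-arrestin genes among them. Of 15 tested in Hep-G2, 7 were lower and 7 higher (median −0.34), and of 6 tested in BE(2)-C, 2 were lower and 0 higher (median −0.09). For the latter 0, limma at an unadjusted p below 0.05 and voom also gave 0. F2R, which encodes the thrombin receptor and lies near F2RL1 at chr5:76716126-76735770 (plus), went from 19.5, 18.8 and 21.8 FPKM to 4.57, 3.73 and 3.74 FPKM in Hep-G2. Its groups did not overlap (−2.29, SE 0.10, adjusted p = 1.3e-05). TFPI, an inhibitor of the tissue factor pathway, fell by 1.65 (adjusted p = 3e-06), while the coagulation factors F7 and F10 rose by 1.72 (adjusted p = 8.2e-06) and 1.42 (adjusted p = 6.7e-05). The receptor genes F2RL2 and F2RL3 were chosen after their values were seen. F2RL2, at chr5:76615482-76623413 (minus), had 25 reads over the siC and none over the siI1 libraries, at least 7.87-fold lower at a floor of 3 reads over the group, though the 95% counting interval reaches down to 5.94-fold, and the list median was −0.34 with it at this bound as well. F2RL2 lies opposite IQGAP2, which had up to 2799 reads. As F2RL2, among the 7 lower, passed the filter only through its siC libraries, it had to differ. F2RL3 had no read in Hep-G2. ARRB2, a beta-arrestin, fell in BE(2)-C by 0.49 (adjusted p = 0.0046) and the trypsinogen gene PRSS3 by 0.35 (adjusted p = 0.0089).

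Cytokine and Toll-like receptors lie upstream of NF-kB. Their list held 15 genes, among them IL1RN, which encodes a secreted antagonist of the interleukin-1 receptor. Of these, 12 were tested in Hep-G2, with 4 lower and 1 higher (median −0.17), and 5 in BE(2)-C, with 2 lower and 0 higher (median −0.67), where limma at an unadjusted p below 0.05 and voom also gave 0 higher. In Hep-G2 LTBR fell by 0.76 (adjusted p = 0.00029) and TNFRSF1A, a TNF receptor, by 0.60 (adjusted p = 0.00061), and IL17RC rose by 0.43 (adjusted p = 0.0078). TNFRSF1B fell in BE(2)-C from 1.45 ± 0.292 to 0.379 ± 0.150 FPKM (−1.72, SE 0.27, adjusted p = 0.0042), and TNFRSF1A by 1.15 (adjusted p = 0.015), a call lost without siC replicate 1 (−1.05) or siC replicate 3 (−1.05).

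All 26 genes of the NF-kB core and its activators were tested in both lines. In Hep-G2 12 were lower and 4 higher (median −0.29), and in BE(2)-C 8 were lower and 2 higher (median −0.13). IRAK1, a kinase of the interleukin-1 and Toll-like receptor route, went from 53.5 ± 1.62 to 26.8 ± 0.905 FPKM in Hep-G2 (−0.99, SE 0.05, adjusted p = 2e-05) and from 96.3 ± 4.97 to 72.8 ± 1.86 FPKM in BE(2)-C (−0.40, SE 0.05, adjusted p = 0.0017). RIPK1 fell by 0.62 in Hep-G2 (adjusted p = 0.00014), and SHARPIN rose by 0.42 (adjusted p = 0.0088). TAB3 rose by 0.63 (adjusted p = 0.019), a call lost without siC replicate 2 (0.54) and with equal sums of FPKM (0.47). The 4 higher became 2 without Hep-G2 siC replicate 2. TRAF2 fell in BE(2)-C by 0.33 (adjusted p = 0.0016) and TRAF3 rose by 0.39 (adjusted p = 0.0064). BIRC2 rose by 0.32 (adjusted p = 0.035), a call lost without siC replicate 1 (0.26), siC replicate 2 (0.31), siI1 replicate 1 (0.36), siI1 replicate 2 (0.34) or siI1 replicate 3 (0.27), and also with no filter or no mean-variance trend, and the 2 higher became 1 without siI1 replicate 1, 2 or 3.

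Besides NFKBIA and TNFAIP3, 18 genes of NF-kB inhibition and feedback were listed. In Hep-G2 4 of 17 were lower and 2 higher, with a median of −0.08. That median was −0.02 without siI1 replicate 1 and turned to 0.01 with median centring. In BE(2)-C 2 of 16 were lower and 3 higher (median −0.16). NFKBIZ, an atypical nuclear IkB, measured 3.62, 3.17 and 3.50 FPKM in Hep-G2 siC and 0.952, 0.873 and 1.01 FPKM in siI1, and the groups did not overlap (−1.76, SE 0.12, adjusted p = 6.3e-05). BCL3, another nuclear IkB, rose there from 5.50, 5.39 and 5.23 FPKM to 10.8, 11.1 and 12.02 FPKM, again with no overlap (1.06, SE 0.07, adjusted p = 4.1e-05). TAX1BP1, an adaptor of A20, fell by 0.62 (adjusted p = 0.00023), and PDLIM2 rose by 0.71 (adjusted p = 0.00049). NFKBIE fell in BE(2)-C from 11.1 ± 1.04 to 4.57 ± 0.902 FPKM (−1.27, SE 0.14, adjusted p = 0.0011) and NFKBIB by 0.44 (adjusted p = 0.0069), while N4BP1 rose by 0.57 (adjusted p = 0.00076) and RNF11 by 0.47 (adjusted p = 0.0036).

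The list of other NF-kB targets held 34 genes. In Hep-G2 11 of 21 tested were lower and 5 higher (median −0.56), the 5 becoming 3 without siC replicate 1 or siI1 replicate 2. ICAM1, an adhesion molecule for leukocytes, measured 38.4, 40.1 and 39.7 FPKM in siC and 5.39, 6.49 and 5.75 FPKM in siI1, with no overlap (−2.73, SE 0.08, adjusted p = 2.9e-06). PLAU, the urokinase gene, fell from 7.37 ± 0.518 to 1.24 ± 0.232 FPKM (−2.49, adjusted p = 3.1e-05). EFNA1 rose from 18.8 ± 1.18 to 56.9 ± 6.90 FPKM (1.59, adjusted p = 4e-05) and the complement gene C3 from 246.7 ± 10.4 to 437.9 ± 2.41 FPKM (0.83, adjusted p = 9.8e-05). BCL2A1, chosen after its values were seen, had 112 siC and 2 siI1 reads, a ratio of 52.9 (95% counting interval 14.3 to 442). As this gene, among the 11 lower, passed the filter only through its siC libraries, it had to differ. In BE(2)-C limma called 0 of 13 lower and 0 higher (median −0.12), while 2 lower and 1 higher passed at an unadjusted p below 0.05 and voom called 2 and 1. Without BE(2)-C siC replicate 1 limma called 1 lower.

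Genes that bind AU-rich elements or drive decay of cytokine mRNA numbered 14, all tested in both lines. In Hep-G2 3 were lower and 3 higher, with a median of −0.02 that turns to 0.07 with median centring, and in BE(2)-C 2 were lower and 1 higher (median −0.11). In Hep-G2 ZFP36L1 fell by 1.06 (adjusted p = 3.5e-05) and RC3H2 by 1.25 (adjusted p = 0.00054), and AUH rose by 0.58 (adjusted p = 0.00031) and ZFP36L2 by 0.41 (adjusted p = 0.0013). KHSRP fell in BE(2)-C by 0.33 (adjusted p = 0.0038) and RC3H2 by 0.43 (adjusted p = 0.013). CELF1 rose by 0.21 (adjusted p = 0.041), a call lost without siC replicate 1 (0.18), siC replicate 3 (0.20), siI1 replicate 1 (0.19), siI1 replicate 2 (0.19) or siI1 replicate 3 (0.24). With no filter, no mean-variance trend or the replicate block the value stayed at 0.21 and was not called either. The 1 higher became 0 without siC replicate 1 or siI1 replicate 1, 2 or 3, and 2 without siC replicate 2.

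For the response to double-stranded RNA and interferon, 18 of 21 genes were tested in Hep-G2, with 10 lower and 1 higher (median −0.46). OAS1, which synthesizes the activator of RNase L, fell from 14.97 ± 0.701 to 4.42 ± 0.263 FPKM (−1.74, SE 0.07, adjusted p = 1e-05), while IFIT1 rose by 1.09 (adjusted p = 0.0013). BE(2)-C had 13 tested, with 3 lower and 1 higher (median −0.21), the 1 becoming 2 without siC replicate 3. There OAS3 fell by 0.68 (adjusted p = 0.00037) and MAVS by 0.36 (adjusted p = 0.0044), and EIF2AK2, the kinase PKR, rose by 0.43 (adjusted p = 0.0071).

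The difference of the effects between the lines was tested by limma for genes tested in both, members left aside. It passed the threshold for 49 of 92 listed genes, beside 40.2% of 15362 genes, and for 52 without Hep-G2 siI1 replicate 1, where the share of all genes was 46.0%. Among the named genes, NFKBIZ differed by −1.60 (Hep-G2 minus BE(2)-C, SE 0.24, adjusted p = 0.00031), BCL3 by 1.29 (SE 0.18, adjusted p = 0.00018) and OAS1 by −1.39 (SE 0.11, adjusted p = 4.8e-06). These genes were named for calls in Hep-G2, on libraries that this contrast also uses, which favours a difference.

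**Figure D5:**
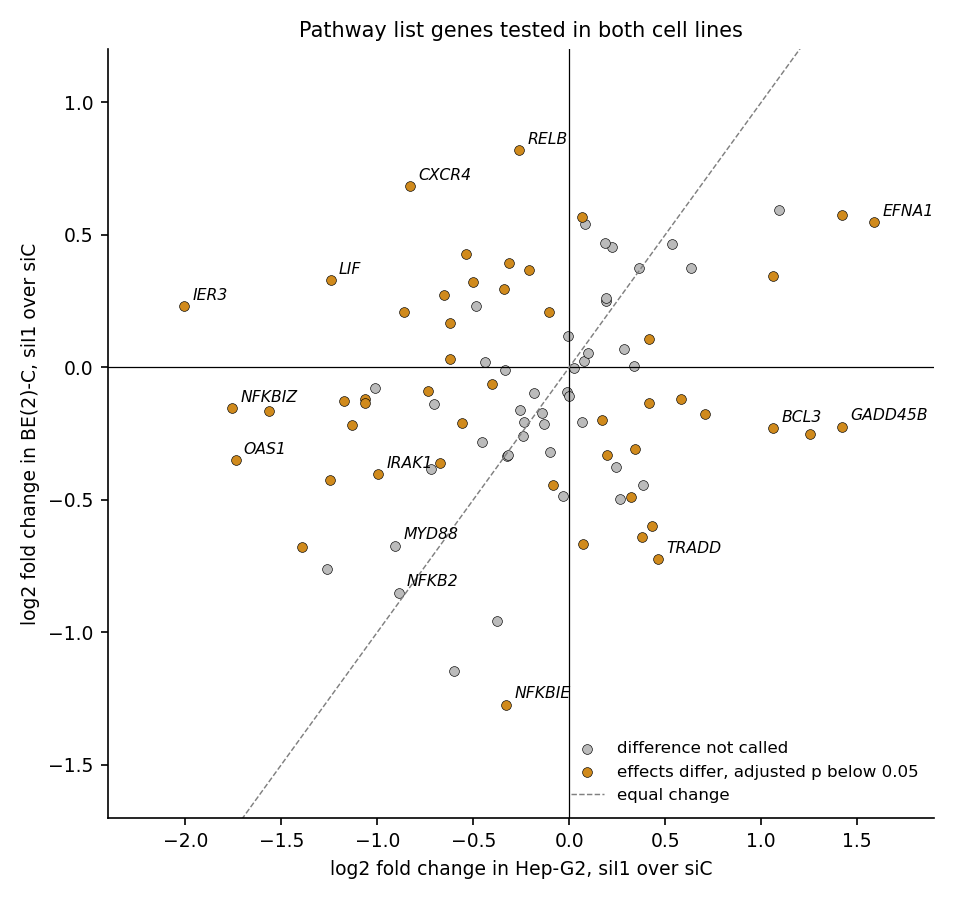
Log2 fold change of siI1 over siC in Hep-G2 (x axis) and BE(2)-C (y axis) for the 92 listed genes tested in both lines (points), with the 49 whose effects differ in orange and equal change as a dashed line. NFKBIZ lies at −1.76 and −0.15 and BCL3 at 1.06 and −0.23.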

How the data were processed

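The authors clipped reads with Cutadapt 1.14, aligned them to hg38 with HISAT2 2.1.0, counted them per gene with featureCounts 1.5.3 and tested each cell line with edgeR 3.30.3. The authors deposited FPKM values on a TMM-scaled library size, a unit taken from the values since the header names none, and their columns of log2 fold change, p-value and FDR were not used. FPKM times gene length fell on whole reads for 100% of nonzero values within 0.01. Between 12852988 and 15721210 reads per library bound the precision.

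Genes with at least 0.1 FPKM in 3 of 6 libraries were compared by limma 3.58.1 in R 4.3.3 on log2(FPKM + 0.1), with the error trend on the mean and p-values adjusted by Benjamini-Hochberg across the tested genes, at 0.05. The difference between lines was a contrast over 12 libraries. Alternatives covered the pseudocount, filter, trend, scaling, replicate block, voom, threshold, fold minimum and each library left out. Named genes are the members, IGF2BP1, from each list and line up to 2 lower and up to 2 higher genes with the smallest p among calls, and the 5 nearest to CXCL8, some of which are not reported here. The lists cover chemokine ligands, chemokine receptors, protease-activated receptors, cytokine and Toll-like receptors, NF-kB core, inhibitors, targets, AU-rich element binding, the interferon response, and markers of hepatic, neuroblastoma, myeloid, endothelial and fibroblast cells. Members and lists were chosen with earlier results of these data known, in both lines, though the rule for the members used only Hep-G2 values. Sequences came from RefSeq and GENCODE on GRCh38, handled with Python 3.11.15, NumPy 2.4.6, pandas 2.3.3 and SciPy 1.17.1, and plots used Matplotlib 3.10.9.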

Additional observations from a re-analysis of the deposited data

Results flagged for a closer look

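For 29 of the genes named in the report the knockdown effects of the lines differed in the limma test of the difference itself, at an adjusted p below 0.05. Over all 15362 genes tested in both lines this share was 40.2%. The genes were named for calls within a line, or in the case of CD14 after its values were seen. The same libraries enter this test, which favours a difference, so nothing is read from the count. Given as the log2 fold change in Hep-G2 minus that in BE(2)-C, the differences below 0 were NFKBIZ −1.60, CXCR4 −1.51, OAS1 −1.39, EIF2AK2 −0.96, ZFP36L1 −0.93, BIRC2 −0.82, RC3H2 −0.82, TAX1BP1 −0.79, OAS3 −0.71, TRAF3 −0.71, RIPK1 −0.66, IRAK1 −0.59, N4BP1 −0.50, CELF1 −0.31 and MAVS −0.31. The differences above 0 were CD14 2.59, CCR10 1.51, BCL3 1.29, EFNA1 1.04, IL17RC 1.03, NFKBIE 0.94, PDLIM2 0.88, F10 0.85, ARRB2 0.81, AUH 0.70, SHARPIN 0.55, TRAF2 0.53, NFKBIB 0.36 and ZFP36L2 0.31.

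CCR10 rests on 3 to 20 reads per Hep-G2 library and CXCR4 on 0 to 10, so the values of both carry wide errors (SE 0.33 and 0.50). Reads per library were also few in BE(2)-C for ZFP36L1 (4 to 11), IL17RC (10 to 25), F10 (11 to 32) and NFKBIZ (18 to 27). The siRNA dose also differs between Hep-G2 and BE(2)-C, 15 nM for the former and 25 nM for the latter, and cannot be told apart from the line.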

How the results depend on the processing

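Of 66 single-gene values, 48 kept their direction and side of the threshold, or moved by less than the spread of replicates, under every alternative, and 0 reversed. Calls were lost in 43 cases, all in the 10 gene and line pairs given with their values in the report, and member values in Hep-G2 moved in 21, mostly under another pseudocount or scaling.

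With a log2 fold change of at least 1 required, Hep-G2 had 24 listed genes lower and 9 higher, BE(2)-C 3 lower and 0 higher, 16 differed between lines, and 0 members were higher in Hep-G2, which follows from the added minimum. Listed genes higher in BE(2)-C numbered 17 with voom and 4 at an adjusted p below 0.01, and 5 to 11 with a library left out; the cause was not tested. The other counts over all lists or all members stayed within 1.5 times their value. Counts of single lists, many of them small, moved further in 87 cases.

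Equal sums of FPKM shifted the median of all Hep-G2 genes by −0.15, and higher genes made up a share of the calls that went from 48.8% to 35.5%. NFKBIA was then 0.27 and CXCL8 −3.40. With median centring the share was 58%, NFKBIA 0.53 and CXCL8 −3.14.

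Whether replicate numbers pair libraries is not stated. Deviations of same-numbered libraries correlated across genes by −0.01 to 0.06, which cannot settle it with 3 libraries per group. With the replicate block, Hep-G2 had 52 listed genes lower and 28 higher and BE(2)-C 19 and 11, and the calls of ACKR2 in Hep-G2 and of CELF1 and CD14 in BE(2)-C were lost.

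With 3 libraries per group, genes with few reads, among them CXCL1, CXCL2, CXCL3 and CXCL5, cannot be measured precisely. Reads of near-identical genes are uncertain, and so are reads of genes on opposite strands that overlap, as the strand setting is not stated.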
